A study of Mus musculus with 2 samples.

Results

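The barcodes described here are low-RNA tumor barcodes from mouse glioblastomas, meaning barcodes that carried tumor-cell transcripts but few molecules in all. A barcode is the sequence tag that a droplet assay gives to whatever a droplet held. A unique molecular identifier (UMI) marks 1 captured molecule, so a barcode's UMI total counts its molecules. Members were chosen by rule from all 8 matrices of the series. A barcode first had to pass quality control, with at least 200 genes detected, at most 10% of UMIs in the 13 mitochondrial genes, and a ratio of log10 genes to log10 UMIs of at least 0.8. It then needed a UMI total under the median of its matrix divided by 3, no UMI of Ptprc, C1qa, C1qb, C1qc, S100a8, Cldn5 or Col1a1, and at least 1 UMI over Olig1, Olig2, Ptprz1 and Egfr together. The rule kept 6987 of 54574 barcodes that passed quality control (12.8%), from 56943 barcodes deposited. The UMI total and these 11 genes chose the members, so their values are given as description only. The rule also limited the mitochondrial share, so its comparison between members and other barcodes is description as well.

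The study examined how Xevinapant changes glioblastoma stem cells and the immune cells around them. Xevinapant is a SMAC mimetic, a small molecule that binds inhibitor of apoptosis proteins. Both groups were orthotopic brain tumors grown in C57BL/6J mice from mGSC, a mouse glioblastoma stem cell line that is Trp53+/- and Nf1+/-, so every tumor came from 1 cell line. Mice received Xevinapant or vehicle daily for a week, with 4 tumors planned per group. Each group was pooled into 1 library and deposited as 4 matrices of UMI counts for 19059 genes. The members numbered 4337 of 30524 passing barcodes in vehicle and 2650 of 24050 in Xevinapant. Treatment, library pool and batch date coincide and cannot be told apart, and the labels give total RNA as the molecule for vehicle but polyA RNA for Xevinapant. Of the 12 pairs of matrices within a group, 3 were nearly alike. Among barcodes at or above the UMI limit, their expression differed by 1.10 to 1.43 times the error from sampling cells, against 2.26 to 5.23 times for the 9 other pairs. Among the low-RNA barcodes the same ratios were 1.08 to 1.13 and 1.18 to 1.71. Alike matrices were joined, which left 5 samples: vehicle 1+3, vehicle 2, vehicle 4, Xevinapant 1+2 and Xevinapant 3+4. Nothing in the labels says which mouse gave which matrix, so the p-values measure the spread between these samples only.

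The 4 genes that admitted a barcode belong to the oligodendrocyte precursor lineage, which many gliomas resemble. Olig1 and Olig2 are transcription factors of that lineage, Ptprz1 is a receptor phosphatase on its cells, and Egfr is a growth factor receptor often active in glioblastoma. The 7 genes that had to be absent mark other cells of a brain tumor, with Ptprc on leukocytes, C1qa, C1qb and C1qc in microglia and macrophages, S100a8 in neutrophils, Cldn5 in endothelium and Col1a1 in fibroblasts. None of the 7 marks the oligodendrocyte precursor lineage, so normal brain cells of that lineage could also meet the rule. A low UMI total can come from a small or damaged cell, from part of a cell, or from a droplet that held only free RNA, and the total alone does not separate these.

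Some members carried the same barcode as a barcode of the other treatment group. In this probe-based assay on fixed cells a barcode joins 16 bases that name the droplet to 8 bases of a probe barcode, and the same 4 probe barcodes were used in both pools. All 24 bases of 722 members (10.3%) occurred again in the matrix with the same probe barcode of the other pool. Among tumor barcodes above the UMI limit the share was 1.06%. That class also had to lack the genes of other lineages. The members' counterparts in the other pool had a median of 2 to 14 UMIs of these genes per matrix, so most could not enter it. The marker rule thus lowers this share, and how much of the contrast with 10.3% it makes was not tested. One example for each probe barcode follows, 5′ to 3′, with the probe barcode in capitals. Each was a member in one pool and a barcode of high UMI total in the other.
Probe barcode 1: atgactttctgtgattACTTTAGG
Probe barcode 2: ctaaccatcgcctctcAACGGGAA
Probe barcode 3: ctatgggagaacctaaAGTAGGCT
Probe barcode 4: tctgccacaccggcaaATGTTGAC

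The first of these barcodes had 1790 UMIs as a member and 325952 in the other pool, which makes the member 0.549% of its twin. The second had 2114 against 353847 UMIs, the third 2496 against 423985 and the fourth 3764 against 595789. The twin had more UMIs than the member in 715 of the 722 pairs, and in 679 pairs (94.0%) the member held under 5% of the twin's UMIs. Over these 679 pairs the median ratio was 0.590%, with 0.540% and 0.664% as the 5th and 95th percentiles. The twins had a median of 129679 UMIs, and all 679 exceeded the median of their own matrix. In a matrix, 99.1% to 99.5% of a member's UMIs (median) fell on genes that its twin also expressed, against 97.8% to 98.5% for the twin of the next pair. The own twin gave the higher value in 581 of the 679 pairs (85.6%). The share of members with a twin ranged from 3.86% in Xevinapant 3 to 24.5% in vehicle 3. Droplet sequences that recurred in the other pool beside a different probe barcode were found for 1.36% to 4.63% of a vehicle matrix's members in any 1 Xevinapant matrix, of which each vehicle matrix has 3 with a different probe barcode. The twins stood in both groups, with 479 members in vehicle and 243 in Xevinapant.

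**Figure D1:**
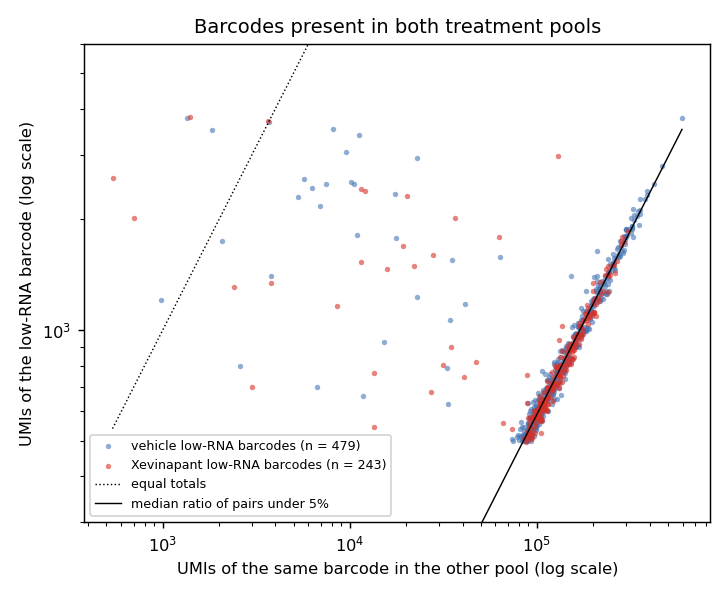
UMIs of each low-RNA barcode that recurs in the other pool (y axis, log scale) against the UMIs of the same barcode there (x axis, log scale), with 1 point per member, blue for the 479 in vehicle and red for the 243 in Xevinapant. Most points lie along the solid line, the median ratio of 0.590% over the 679 pairs under 5%, and the dotted line marks equal totals.

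The members were shallow. Their UMI totals ran from 496 to 4451 with a median of 1558, they detected a median of 1139 genes, and together they held 12614234 UMIs, 1.08% of all UMIs in the 8 matrices. The whole matrices held 71835789 to 300206053 UMIs, with medians of 7621 to 13360 UMIs per passing barcode, so the UMI limit lay between 2540 and 4453. Of all 13695 low-UMI barcodes, 51.0% were members, 36.0% carried a UMI of another lineage's gene and 13.0% carried neither. The limit divides a continuous distribution. Within 10% of it, 520 members just inside had a median of 3754 UMIs and 2328 genes, and 488 tumor barcodes just outside had 4149 UMIs and 2504.5 genes, with 1.26% and 1.13% of their summed UMIs on mitochondrial genes.

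**Figure D2:**
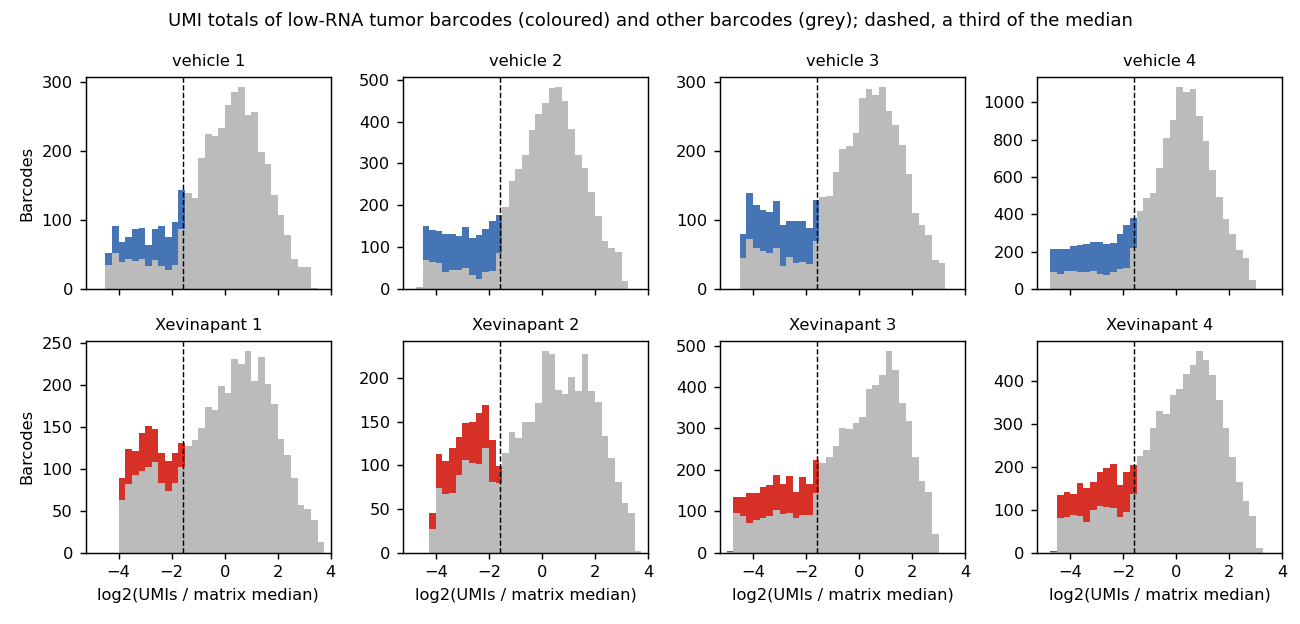
Number of barcodes (y axis) by UMI total relative to the matrix median (x axis, log2) in each of the 8 matrices, as stacked bars with low-RNA tumor barcodes in blue (vehicle) or red (Xevinapant) on top of all other passing barcodes in grey. The dashed line is the UMI limit, and the members spread over the whole range below it rather than close to it.

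The label of tumor cell rested on few molecules. A single UMI of the 4 tumor genes had admitted 1615 members (23.1%, 16.1% to 36.3% per matrix). Between 53.2% and 66.4% of a matrix's members had a UMI of Ptprz1, 52.9% to 69.0% of Olig1, 46.0% to 66.4% of Olig2 and 11.5% to 23.6% of Egfr. Barcodes of other cell types give a background for these shares, whose source was not tested. Among low-UMI barcodes with at least 3 UMIs of the immune genes, which should lack them, 25.5% to 67.9% had a tumor UMI. In immune barcodes thinned to 1000 UMIs this was 16.3% to 57.0%, and in low-UMI barcodes without the 7 other-lineage genes it was 62.5% to 89.8%. Median totals were 1005.5 to 1597.5 UMIs in the last class and 1217 to 1988 UMIs in the low-UMI immune barcodes. All 3 classes were chosen by rule genes, so these shares are description only. The rule did not use a list of 20 other tumor genes, whose summed level was 6527 to 7672 CPM (counts per 1e6 UMIs of the class in a sample) in the members and 4147 to 6665 CPM in deep immune barcodes. The lowest members' sum lay below the highest immune sum.

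To separate composition from depth, deeper barcodes were thinned. Every passing barcode at or above the limit was randomly reduced to the UMI total of a member of the same matrix, then put through the same quality and marker rule, which left 29863 depth-matched tumor barcodes. At full depth 18426 deeper barcodes met the marker rule. Thinning can remove UMIs of other lineages but adds no tumor UMI, so part of the 29863 carried other-lineage UMIs before it. Tumor UMIs alone were found in 52.2% ± 13.9 of low-UMI barcodes against 72.5% ± 11.8 of thinned barcodes (SD, n = 5 samples). UMIs of another lineage were found in 34.7% ± 11.4 against 18.1% ± 8.57, and neither kind in 13.1% ± 3.72 against 9.37% ± 3.95. Each difference had the same sign in 5 of 5 samples. These shares compare shallow with deeper barcodes by the genes that chose the members, so they carry no test.

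The share of passing barcodes that were low-RNA tumor barcodes was lower in the Xevinapant samples. It was 13.2%, 15.4% and 14.2% in vehicle 1+3, vehicle 2 and vehicle 4, and 9.23% and 12.1% in Xevinapant 1+2 and Xevinapant 3+4. The groups did not overlap, with means of 14.3% ± 1.11 (SD, n = 3) and 10.6% ± 2.0 (n = 2). The difference of -3.62 percentage points had an exact permutation p of 0.1 (two-sided), the smallest that 3 against 2 samples allow. With each matrix taken as 1 mouse the shares were 11.8%, 15.4%, 14.6% and 14.2% against 8.26%, 10.2%, 12.4% and 11.7%, which overlapped, and the difference was -3.35 points (exact permutation p = 0.0571). Without the twins it was also -3.35 points over the 5 samples, the groups overlapped and the exact permutation p was 0.3. The test sets treatment groups against each other, which the rule did not use. Low-UMI barcodes of any kind ran the other way, at 7106 of 30524 passing barcodes in vehicle (22.2% to 26.6% per matrix) and 6589 of 24050 in Xevinapant (25.8% or more per matrix). Of the low-UMI barcodes, members made up a mean of 61.2% in the vehicle and 38.7% in the Xevinapant samples, and barcodes with a UMI of another lineage 27.4% and 45.7%. Unthinned tumor barcodes at or above the limit were also fewer, at 12527 of 30524 passing barcodes in vehicle and 5899 of 24050 in Xevinapant. Of the thinned deeper barcodes 75.2% to 82.4% per vehicle matrix met the marker rule, against 53.1% to 70.0% per Xevinapant matrix. The lower share was therefore not particular to the low-RNA barcodes. Fewer tumor barcodes and more barcodes of other kinds cannot be told apart. Depth differed as well. The UMI limit was 2540 in Xevinapant 1 and 2838.5 in Xevinapant 2, against 3437.5 to 4453 in the other matrices. Members of Xevinapant 1 and Xevinapant 2 had medians of 1094 and 1228 UMIs, against 1273 to 1745 in the others. The part of depth in the lower share was not tested. The droplet sequence of 25.7% ± 3.60 of the members recurred in another matrix of the same pool, against 28.3% ± 5.38 of the 18426 unthinned tumor barcodes at or above the limit (SD, n = 5, difference -2.55 points, exact sign-flip p = 0.1875).

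**Figure D3:**
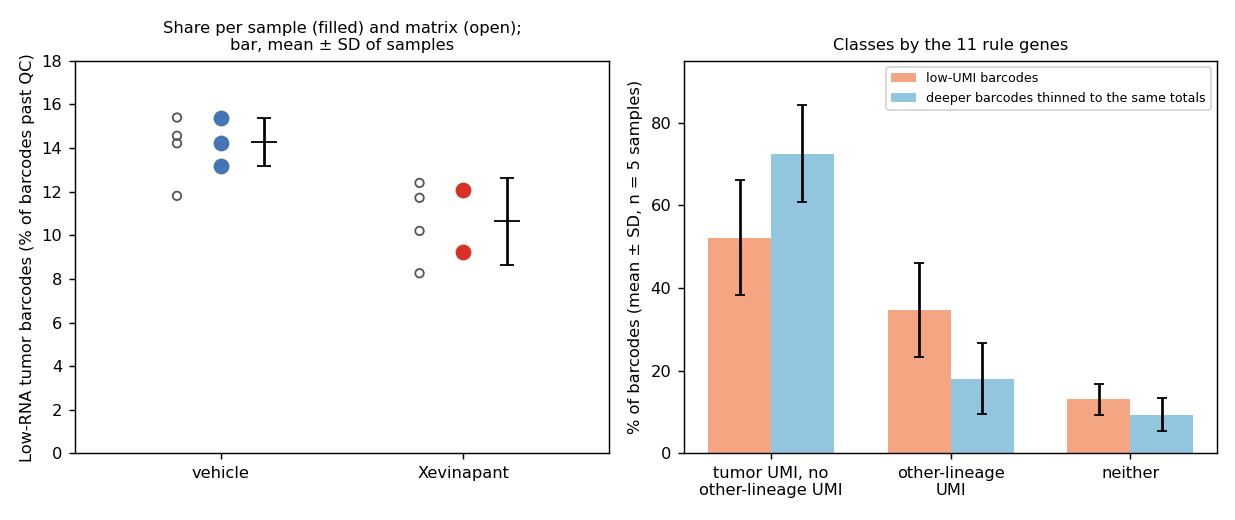
Left, share of passing barcodes that were low-RNA tumor barcodes (y axis, percent) for each matrix (open points) and each sample (filled points), with the mean ± SD of the samples, where all 3 vehicle samples lie above both Xevinapant samples while the matrices overlap. Right, mean ± SD over 5 samples of the share of low-UMI and of thinned deeper barcodes in each class of the marker rule, with tumor UMIs alone at 52.2% and 72.5%.

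Compared with tumor barcodes of the same depth, the members held more transcripts of red blood cells, heat shock, immediate early genes and hypoxia, and fewer transcripts of the oligodendrocyte precursor program and of cholesterol synthesis. UMIs were summed per sample and class and tested with the sample as a block by edgeR's quasi-likelihood test with Benjamini-Hochberg adjustment. Of 11654 genes tested, 1413 (12.1%) were higher and 1660 (14.2%) lower in the members at an adjusted p of 0.05 or less, 26.4% in all. Without the sample block 308 genes passed and by DESeq2 2040. Differences are log2 values, with a median of 0.02 over all genes. Most differences were small, and the largest stood in a few genes. Summed member UMIs per sample were 1957444, 1949398, 4120179, 1070099 and 3517114, so genes at a few CPM rest on few UMIs. Values by sample are given below in the order vehicle 1+3, vehicle 2, vehicle 4, Xevinapant 1+2, Xevinapant 3+4.

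**Figure D4:**
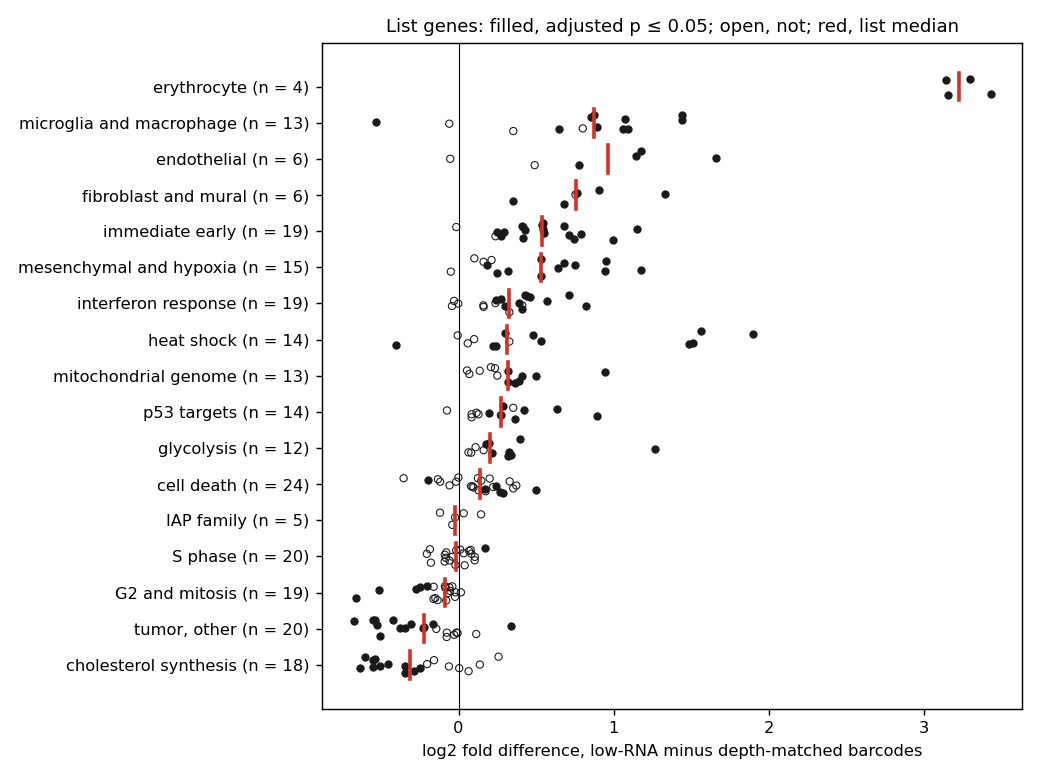
Log2 difference of low-RNA minus depth-matched tumor barcodes (x axis) for the tested genes of 17 gene lists (y axis), filled where the adjusted p was 0.05 or less and open where not, with the list median as a red bar. Immediate early genes lie mostly above 0 (median 0.54), cholesterol synthesis genes mostly below it (median -0.32), and erythrocyte genes farthest to the right (median 3.23).

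Among the genes named by size the largest differences were in Myh4 and 3 globin genes. Hbb-bs, an adult beta globin, stood at 391, 716, 754, 2329 and 978 CPM in the members and 57, 66.3, 95.9, 194 and 75.2 CPM in the depth-matched barcodes. Every sample was higher in the members, which the rule for genes named by size required, with a log2 difference of 3.30 (SE 0.11, adjusted p = 3.2e-14). The fast skeletal myosin gene Myh4 was at 62.8, 0.513, 142, 185 and 176 CPM against 0.232, 0, 12.6, 0.222 and 0.468 CPM. Vehicle 2 had 1 UMI in the members and 0 UMIs in the matched barcodes. Outside vehicle 4 the matched values were at most 0.468 CPM, so the log2 difference of 5.06 divides by values near 0 and is description only. All 4 tested erythrocyte genes rose, Hbb-bs, Hbb-bt, Hba-a2 and Alas2 (the heme synthesis enzyme of erythroid cells), with a median of 3.23. Few barcodes carried this signal. Globin genes made up at least 1% of the UMIs in 79 members, which held 94.2% of all globin UMIs in the class, and up to 63.5% of a single barcode. Muscle genes reached 1% in 44 members, which held 96.1% of muscle UMIs, 26 of them in vehicle 4. A single tumor UMI had admitted 44.3% of the globin-rich and 40.9% of the muscle-rich members. An alternative left out the 122 members and all deeper barcodes rich in either. Hbb-bs then still differed by 0.95 (adjusted p = 1.11e-05) and Hba-a2 by 1.01, and Myh4 had too few UMIs to be tested. Without the twins Hbb-bs differed by 3.48 and Myh4 by 3.76, and over all alternatives Myh4 ranged from 3.59 to 7.20.

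Heat shock genes, which encode chaperones made under proteotoxic stress, were higher as a group. Of 14 tested, 9 rose and Hspa5, a chaperone of the endoplasmic reticulum, fell, with a list median of 0.31. Hspa1a, which encodes inducible HSP70, was at 55.2, 65.7, 23.3, 323 and 159 CPM in the members and 17.4, 17.3, 6.35, 96.5 and 36.4 CPM in the matched barcodes. The difference was 1.90 (SE 0.08, adjusted p = 1.2e-12), and the members were higher in 5 of 5 samples, with both Xevinapant samples above all vehicle samples in each class. Its near-identical copy Hspa1b differed by 1.51 (SE 0.11, adjusted p = 2.6e-08), and the split of molecules between these copies, like that among the globin copies, is uncertain. Hsp90aa1, a cytosolic chaperone, differed by 0.48.

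Immediate early genes, which are transcribed within minutes of a stimulus, were higher in most cases. Of 19 tested, 17 rose and none fell, with a median of 0.54. Junb, an AP-1 subunit, was at 53.1, 54.9, 37.4, 189 and 125 CPM against 43.1, 23.3, 24.9, 82.3 and 75.3 CPM and differed by 0.79 (SE 0.10, adjusted p = 1.6e-05). Fos and Egr1, further transcription factors of this response, differed by 0.41 and 0.42, and members were higher in 5 of 5 samples for both. Of 15 mesenchymal and hypoxia genes 11 rose and none fell (median 0.53), among them Anxa2, a membrane-binding annexin, by 0.75 (SE 0.07, adjusted p = 3.6e-07), Ndrg1, a stress-induced gene of hypoxic cells, by 0.68, and Vegfa, the main angiogenic growth factor, by 0.53. Of 12 glycolysis genes 8 rose (median 0.20), including Pkm, which encodes pyruvate kinase, by 0.34.

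Of 14 p53 targets 7 rose and none fell (median 0.27), with Cdkn1a, the cell cycle inhibitor p21, at 101, 88.2, 46.6, 136 and 126 CPM against 68.1, 55.3, 37.1, 95.4 and 62.9 CPM (difference 0.64). Of 19 interferon-response genes 11 rose and none fell (median 0.33), with Isg15, an interferon-induced ubiquitin-like modifier, at a difference of 0.57. Of 18 ATF4 and unfolded protein response genes 8 rose and 4 fell (median 0.16). The 8 included the amino acid enzymes Phgdh and Asns, and the 4 that fell were Hspa5, Pdia4, Sdf2l1 and Calr, all chaperones or folding factors of the endoplasmic reticulum.

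Genes of cell death, the process on which the drug class acts, showed no more calls than genes at large. Of 24 cell death genes 5 rose, among them Bcl2l11 and Bbc3, which promote apoptosis, and Mcl1, which opposes it, and Tnfrsf1a, a TNF receptor, fell (median 0.14), a share near the 26.4% of all genes tested. Mcl1 was at 173, 136, 148, 201 and 208 CPM against 136, 124, 133, 154 and 171 CPM, a difference of 0.24. None of the 5 tested inhibitor of apoptosis genes passed (median -0.02). Birc2 and Xiap, which encode cIAP1 and XIAP and are targets of Xevinapant, had log2 differences of -0.12 (adjusted p = 0.454) and 0.03 (adjusted p = 0.877) by edgeR's quasi-likelihood test.

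Tumor genes outside the rule, among them genes of oligodendrocyte precursors, were mostly lower in the members. The mesenchymal and hypoxia genes above went the other way. Of 20 tumor genes outside the rule 12 fell and only Fabp7, a fatty acid binding protein of radial glia, rose (median -0.22). Bcan, which encodes the brain matrix proteoglycan brevican, was at 879, 909, 976, 1029 and 913 CPM in the members and 1152, 1183, 1402, 1406 and 1147 CPM in the matched barcodes, lower in 5 of 5 samples. Dll3, a Notch ligand, Cspg4, the precursor proteoglycan NG2, and Pdgfra, the growth factor receptor of precursors, differed by -0.67, -0.55 and -0.54. Sox2, a stem cell transcription factor, had a difference of 0.11 that did not pass (adjusted p = 0.145). Of 10 genes of committed precursors 2 rose and 3 fell (median -0.02), with Gpr17 at -0.45. Of 7 myelin genes 2 rose, Opalin and Mbp, and none fell (median 0.26), where 26.4% of all genes tested passed. Of 11 astrocyte genes 4 rose and 2 fell (median 0.14), with Gfap, the astrocyte filament protein, at 0.56.

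Cholesterol synthesis genes were lower. Of 18 tested, 11 fell and none rose (median -0.32). Dhcr7, a reductase late in the pathway, was at 705, 804, 801, 549 and 589 CPM against 1019, 1098, 1268, 924 and 972 CPM and differed by -0.63 (SE 0.06, adjusted p = 4.1e-07). Srebf2, the transcription factor that drives the pathway, differed by -0.55, and Sqle, squalene epoxidase, by -0.54. Among proliferation genes, 5 of 19 G2 and mitosis genes fell (median -0.09) and 1 of 20 S phase genes rose (median -0.02). Of all genes tested 26.4% passed, 14.2% lower and 12.1% higher, so these counts are not read as a result about proliferation. Mki67 differed by -0.51, while Top2a had a difference of -0.08 that did not pass (adjusted p = 0.333).

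Among single genes with the largest fall, Slc8a2, a sodium and calcium exchanger of neural cells, stood at 80.2, 110.3, 56.6, 40.2 and 46.9 CPM in the members and 116, 161, 103, 90.5 and 87.2 CPM in the matched barcodes, a difference of -0.78 (SE 0.08, adjusted p = 6.4e-07). Mmp17 and Mmp15, membrane metalloproteinases, differed by -0.74 and -0.72, Nrm, the inner nuclear membrane protein nurim, by -0.72, Mfap4, a matrix protein, by -0.71, and Ror2, a Wnt receptor, by -0.70. The same direction in all samples was a condition for naming these genes.

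Markers of other cell types were low, and most were higher in the members than in the matched barcodes. Both classes had passed the same 7 absent genes. The microglia and macrophage list summed to 133 to 322 CPM in the members and 130 to 246 CPM in the matched barcodes, against 6586 to 12285 CPM in deep immune barcodes. Of its 13 tested genes 9 rose and Tmem119, a microglia gene, fell (median 0.87). Endothelial genes summed to 37 to 70 CPM against 24 to 43 CPM, and 4 of 6 rose. Fibroblast and mural genes summed to 94 to 422 CPM against 55 to 445 CPM, and 5 of 6 rose. The microglia and endothelial sums were higher in the members in 5 of 5 samples and the fibroblast and mural sum in 4 of 5, with 422 CPM against 445 CPM in Xevinapant 1+2. The part of these cells in the differences above was not tested.

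The summed UMIs of the members held a higher mitochondrial share in 4 of 5 samples, while the median share per barcode was not higher in most vehicle matrices. Over the summed UMIs the share was 1.24%, 1.55%, 1.13%, 1.45% and 1.44% in the members and 1.12%, 1.27%, 1.17%, 0.825% and 0.945% in the matched barcodes. The difference was small in the vehicle samples, negative in vehicle 4, and larger in both Xevinapant samples. Its mean was 0.295 percentage points (1.36% ± 0.172 against 1.07% ± 0.179, SD, n = 5). The rule limited this share, so the difference is description only and carries no test. With each of the 8 matrices as 1 sample it was 0.338 points, higher in 7 of 8. That count takes nearly alike matrices as separate samples. The median share per barcode was lower in the members in vehicle 1 (0.809% against 0.878%), vehicle 3 (0.741% against 0.925%) and vehicle 4 (0.800% against 0.930%), near equal in vehicle 2 (1.06% in the members), and higher in the 4 Xevinapant matrices (0.764% to 1.13% against 0.596% to 0.806%). The 13 genes of the mitochondrial genome, whose sum the rule limited, are also given as description. All 13 had a positive difference (median 0.32), with mt-Nd6, the only one encoded on the light strand, highest at 0.94 (SE 0.13).

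Read per barcode at 1 fixed depth, the same genes differed in the share of barcodes that detected them. All low-UMI barcodes of at least 1000 UMIs and all deeper barcodes were thinned to 1000 UMIs and put through the rule again. The 2021 members under that total were left out. This gave 4906 low-UMI and 30079 deeper tumor barcodes, with medians near 805 and 824 genes. The 4906 can include barcodes that were not members, since thinning can remove UMIs of other lineages. Bcan was detected in 46.1% ± 1.48 of the low-UMI and 61.4% ± 3.88 of the deeper barcodes (SD, n = 5), Dll3 in 25.2% ± 6.11 and 35.3% ± 7.51, and Mki67 in 27.5% ± 4.38 and 34.2% ± 5.12. Sox2 stood at 42.1% ± 1.71 and 42.0% ± 2.57. Immune barcodes thinned to the same total should lack the tumor genes Bcan, Dll3 and Sox2. There the range over matrices was 8.75% to 27.2% for Bcan, 2.71% to 13% for Dll3 and 6.73% to 17.7% for Sox2. For the proliferation gene Mki67 it was 13.2% to 28.5%, which includes the mean of the low-UMI barcodes. At least 3 UMIs of the 20 tumor genes outside the rule were found in 87.7% of low-UMI and 93.6% of deeper barcodes, and at least 3 UMIs of cholesterol synthesis genes in 38.3% and 53.7%. For immediate early genes the order was the opposite, at 30.7% and 22.5%.

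Members also varied with their own UMI total. They were split into 1818 under the matrix median divided by 12, 2362 from there to the median divided by 6, and 2807 above. The erythrocyte list summed to a mean of 4153, 3037 and 1013 CPM in these bands and the microglia and macrophage list to 338, 283 and 187 CPM, both higher in the lowest band than in the highest in 5 of 5 samples. The erythrocyte sum did not fall evenly, and in vehicle 1+3 (499, 2038 and 130 CPM) and vehicle 2 (1777, 3041 and 527 CPM) it was highest in the middle band, as was the microglia and macrophage sum in vehicle 4 and Xevinapant 1+2. The 20 tumor genes outside the rule ran the other way, at 6896, 7201 and 7350 CPM, and were lower in the lowest band in 5 of 5 samples. The ATF4 and unfolded protein response list did the same at 2199, 2347 and 2419 CPM. Committed precursor genes were at 2813, 2542 and 2260 CPM.

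Under Xevinapant the members held more transcripts of immediate early genes than under vehicle, with 9 of 20 tested genes higher. Of 11210 genes tested across samples by edgeR's quasi-likelihood test, 27 (0.241%) were higher and 1 (0.00892%) was lower at an adjusted p of 0.05 or less, 0.25% in all, and 1308 genes had an unadjusted p under 0.05. Fos was at 163, 87.7 and 86.6 CPM in the vehicle samples and 372 and 402 CPM in the Xevinapant samples. The groups did not overlap, which the rule for genes named by size required here, and the log2 difference was 1.83 (SE 0.23, adjusted p = 0.0135). Dusp1, a phosphatase that shuts down MAP kinases, was at 90.4, 66.2 and 69.2 CPM in the vehicle samples and 272 and 213 CPM in the Xevinapant samples, again without overlap, and differed by 1.71 (SE 0.17, adjusted p = 0.00364). Junb differed by 1.72 (SE 0.21, adjusted p = 0.0135).

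Of the heat shock list Hspa1a and its near copy Hspa1b were among the 27, and of the mesenchymal and hypoxia list Vegfa and Ndrg1. Hspa1a was at 55.2, 65.7 and 23.3 CPM in the vehicle samples and 323 and 159 CPM in the Xevinapant samples, with a difference of 2.39 (SE 0.37, adjusted p = 0.0293), and Hspa1b differed by 2.20 (SE 0.38, adjusted p = 0.045). Vegfa was at 548, 569 and 397 CPM in the vehicle samples and 1428 and 904 CPM in the Xevinapant samples, with a difference of 1.24 (SE 0.21, adjusted p = 0.045), and Ndrg1 differed by 1.27 (SE 0.20, adjusted p = 0.0333). For each of these genes the lower Xevinapant sample exceeded the highest vehicle sample. The further genes that rose were the transcriptional regulators Fosb, Fosl2, Atf3, Klf4, Klf5, Klf6, Egr1, Ier2, Cebpd, Bhlhe40 and Per1, the signalling regulators Errfi1, Gem and Gadd45g, the matricellular gene Ccn1, and Tcim, Srgn, Nebl, Rsrp1 and mt-Nd6. The gene that fell was Ddx5, an RNA helicase, at 238, 245 and 281 CPM in the vehicle samples and 119.6 and 146 CPM in the Xevinapant samples, a difference of -0.89 (SE 0.14, adjusted p = 0.0333).

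**Figure D5:**
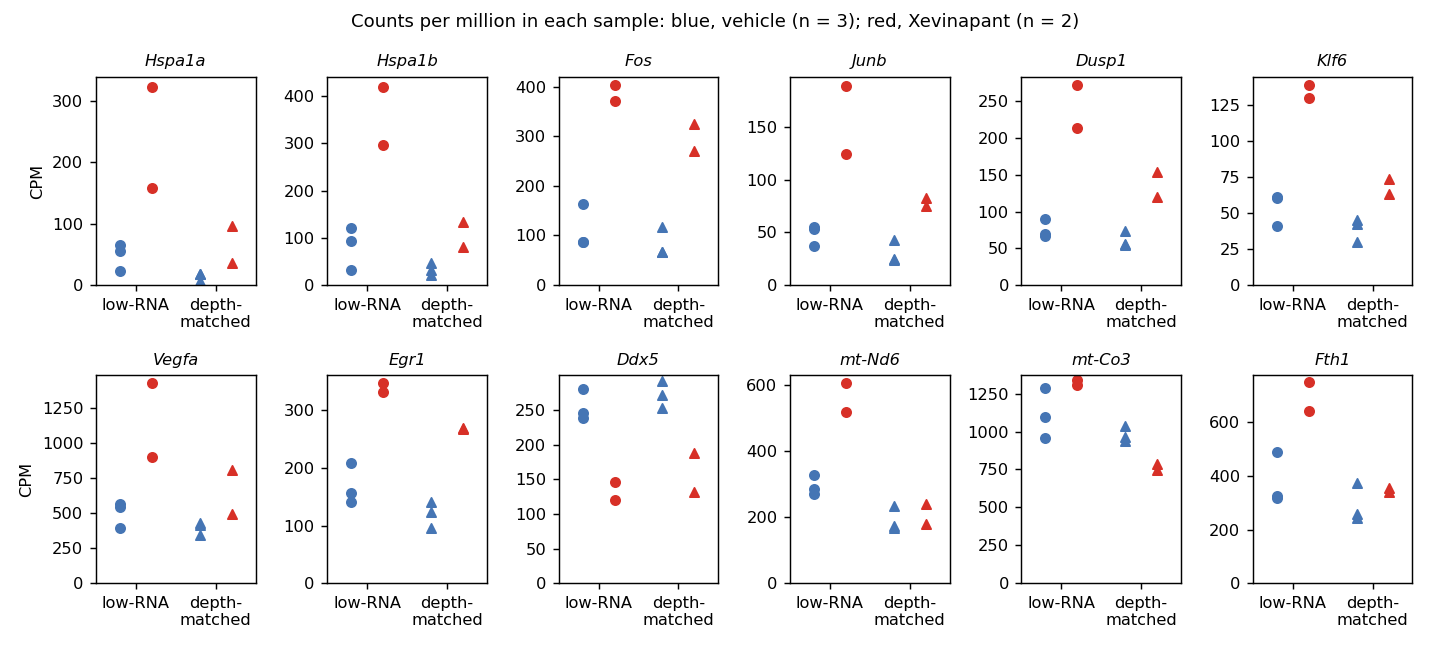
CPM (y axis, from 0) of 12 genes in each sample, with low-RNA tumor barcodes as circles and depth-matched tumor barcodes as triangles, blue for the 3 vehicle and red for the 2 Xevinapant samples. For Fos, Dusp1 and Hspa1a the Xevinapant samples lie above the vehicle samples in both classes, while for mt-Co3 they lie above them in the members and below them in the matched barcodes.

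By list, 20 immediate early genes were tested, 9 rose and all 20 had a positive difference (median 1.17). Of 14 heat shock genes 2 rose, and of 14 mesenchymal and hypoxia genes 2 rose (median 0.60). None of the 5 inhibitor of apoptosis genes, 24 cell death genes, 14 p53 targets, 18 ATF4 and unfolded protein response genes or 19 interferon genes passed, with 18 of the 19 interferon differences positive (median 0.33). The interferon sums overlapped, at 1743, 576 and 1410 CPM in the vehicle samples and 1229 and 1778 CPM in the Xevinapant samples, with vehicle 2 far below the others. None of 19 G2 and mitosis genes passed, and 18 of the 19 differences were negative (median -0.33), as was the S phase median of -0.26. The median over all genes was -0.00. No gene of the lists of other cell types passed, and the lists differed in direction. The differences were positive for 5 of 5 erythrocyte genes (median 1.77), 5 of 5 fibroblast and mural genes (median 1.11) and 9 of 11 microglia and macrophage genes (median 0.71), against 4 of 7 endothelial genes (median 0.02) and 1 of 2 ependymal genes (median -0.36). In immune barcodes thinned to 1000 UMIs, Fos was detected in 3.42% to 7.48% per vehicle matrix and 11.5% to 14.1% per Xevinapant matrix. The part of these cells in the calls was not tested. The calls rested on 2 Xevinapant samples. Without either one no gene passed, with 521 genes at an unadjusted p under 0.05 without Xevinapant 1+2 and 1252 without Xevinapant 3+4, and leaving out a vehicle sample gave 16 to 52 genes. Of the 28 genes 27 passed again without the twins. With at least 2 tumor UMIs required of a member 8 of the 28 passed, which were Fos, Junb, Dusp1, Egr1, Ccn1, Bhlhe40, Gadd45g and Hspa1b, while Hspa1a, Vegfa, Ndrg1, mt-Nd6 and Ddx5 were among the 20 that did not.

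The depth-matched tumor barcodes moved the same way. All 28 genes had the same sign there. They were called on members of the same 5 samples, so this likeness is description only. The median of the 27 raised genes was 1.37 (0.75 to 2.74) in the members and 1.06 (0.08 to 2.52) in the matched barcodes. None of 12331 genes passed in the matched barcodes (0.0%, adjusted p for the 28 genes 0.271 to 0.906, 1274 genes at an unadjusted p under 0.05 by edgeR's quasi-likelihood test). Fos differed by 1.80 there and Hspa1a by 2.26. A call in one class and not in the other does not show that the classes differ, and 3 of the 28 genes, Dusp1, Vegfa and mt-Nd6, passed the test of that difference.

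The treatment difference itself differed between members and matched barcodes for 30 of 12269 genes, 29 larger in the members (0.236%) and 1 smaller (0.00815%), 0.245% in all. Without TMM scaling of the library sizes 51 genes passed, 29 larger and 22 smaller. Of the 30 genes 12 were mitochondrial, 8 were genes of skeletal muscle and 10 were others. The rule had limited the mitochondrial share alike in both classes and both treatment groups. mt-Co3, a subunit of cytochrome oxidase, was at 1096, 1284, 955, 1306 and 1339 CPM in the members and 964, 1033, 938, 746 and 787 CPM in the matched barcodes. In the matched barcodes both Xevinapant samples lay below all vehicle samples, and in the members above all of them, and the difference between the effects was 0.69 (SE 0.10, adjusted p = 0.00428). Fth1, the ferritin heavy chain that stores iron, was at 489, 326, 317, 749 and 641 CPM against 376, 243, 258, 356 and 339.6 CPM, highest in the Xevinapant members, with a value of 0.70 (SE 0.10, adjusted p = 0.0018). The 8 muscle calls rested on few barcodes and samples. Myh4, Acta1 and Ttn had values of 4.89 (SE 0.67), 3.69 (SE 0.48) and 3.67 (SE 0.50), and in vehicle 2 each had 1 UMI over all members. In the matched barcodes each stood at 2.88 CPM or less in every matrix but vehicle 4. These values too rest on levels near 0 and are description only. Without the twins the values were 1.21 for Myh4, 0.99 for Acta1 and 2.31 for Ttn. Of the 30 genes 21 passed again without the twins, and the 9 that did not were Car3, Nap1l5 and all muscle genes but Ttn. Without the globin- and muscle-rich barcodes of both classes 17 of the 30 passed, with none of the 8 muscle genes and not Hbb-bs among them. Without Xevinapant 3+4 14 of the 30 passed, again with none of the 8 muscle genes, and without Xevinapant 1+2 9 of the 30, with 5 of the 8 muscle genes. The gene smaller in the members was Pcdhb7, a protocadherin, at -1.12 (SE 0.22, adjusted p = 0.0314). Without vehicle 4 only 4 of the 30 genes passed, which were Fth1, mt-Co1, mt-Co3 and mt-Nd6.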

How the data were processed

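Tumors of 2 groups, vehicle and Xevinapant, were measured with a probe-based single-cell RNA assay. The authors deposited raw UMI counts per gene and barcode, after Cell Ranger's cell calling but before their filters on cells. The labels name Cell Ranger 3.0, mm10 and Seurat 4.0, whereas the file headers name Cell Ranger 7.1.0. The names of the Xevinapant matrices carry the word vehicle, and the sample's label was followed. UMI totals per matrix were 71835789 to 300206053.

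The members, gene lists and tests were chosen with earlier results of these data known. Barcodes were selected in Python 3.11.15, and deeper barcodes were thinned without replacement. Doublets were not removed, and an alternative removed the highest Scrublet scores at 0.8% per 1000 barcodes. Counts summed per sample and class were tested in edgeR 4.0.16 (R 4.3.3) with TMM scaling, a filter on low counts and Benjamini-Hochberg adjustment at 0.05. The sample was a block wherever both classes were compared, since both come from the same samples. The 11 rule genes were left out of all tests. DESeq2 1.42.0 was an alternative, and the fits were tested on simulated counts. Shares were compared by exact permutation or sign-flip tests. Named genes were the 10 called genes with the largest log2 difference in each direction, at a mean log2 CPM of 5 or more and with the same direction in all samples (no overlap between treatment groups), the 5 with the lowest p in each direction for the difference of treatment effects, and up to 4 genes of each list with the highest mean CPM. Genes named beside these were chosen after their values were seen. Further alternatives changed the UMI limit, the tumor UMI minimum, the unit and the barcodes or samples included. Removal of barcodes shared between pools and of globin-rich and muscle-rich barcodes was added after seeing the data. A few genes are not reported here.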

Additional observations from a re-analysis of the deposited data

Results flagged for a closer look

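Values of 24 groups of 4 matrices were checked for a matrix far from the others, and chance would single out about 1 in 20 such groups. Among the vehicle matrices, vehicle 2 had another lineage's UMI in 21.3% of its low-UMI barcodes, against 29.9% to 31.0% in the others. Vehicle 3 shared 24.5% of its members with the other pool, against 6.25% to 9.04%. Vehicle 4 shared 20.1% of its members' droplets with another matrix of its pool, against 28.4% to 29.5%, and held 26 muscle-rich members, against 0 to 3. Xevinapant 3 held 8 muscle-rich members, against 2 to 3 in the other Xevinapant matrices.

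The treatment effect differed between low-RNA and depth-matched tumor barcodes for 30 genes by edgeR's quasi-likelihood test. The log2 value of that difference was 4.89 for Myh4, 3.69 for Acta1, 3.67 for Ttn, 0.70 for Fth1, 0.69 for mt-Co3 and -1.12 for Pcdhb7. Outside every comparison, 118 low-UMI barcodes met the tumor rule but had more than 10% mitochondrial UMIs.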

How the results depend on the processing

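No share changed direction under any alternative tried, and no named gene did so in the comparison it was named for. In comparisons that did not name them some genes changed sign, such as Fos in the difference of treatment effects, from 0.07 to -0.14. Among the further genes called, Ankrd23, Ryr1 and Myom1 reversed between members and depth-matched barcodes without the globin-rich and muscle-rich barcodes, and Ckm reversed in the difference of treatment effects without vehicle 4. Of the values for named genes under alternatives, 1303 kept their side of the threshold and 263 no longer passed. Between members and depth-matched barcodes, 3073 genes passed with the sample as a block, 2040 by DESeq2, 308 with no replicate block, and 2072 to 2990 with a sample left out. The block stands for the samples that gave both classes. No paired analysis was possible because the labels number no replicates across the treatment groups. For Xevinapant against vehicle in the members, 28 genes passed, against 57 by DESeq2, 363 with no filter on low counts, 176 with each matrix as 1 mouse, 187 with that and without the barcodes shared between pools, 9 with at least 2 tumor UMIs, and 0 to 52 with a sample left out. For the difference of treatment effects, 30 genes passed, against 51 without TMM scaling, 91 with unthinned deep barcodes, 51 with each matrix as 1 mouse, and 4 to 33 with a sample left out. Where 1 Xevinapant sample remained, it was assumed to vary like the vehicle samples. The mitochondrial difference was 0.338 points with each matrix as 1 sample and 0.212 to 0.378 with a sample left out. The share of members differed by -5.04 to -2.21 points and the sharing of droplets by -3.74 to -1.78 points with a sample left out. The cause was not tested where a count moved.

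The depth of 1070099 to 4120179 summed UMIs per sample limits the members' calls to genes of moderate level, and 2 Xevinapant samples limit the treatment comparison, whose exact tests cannot fall under 0.1. DoubletFinder and scDblFinder, which the labels also name, were not used here.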
